A study of Mus musculus with 18 samples.

Results

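The circRNAs described here are the 300 brightest circRNA probes of an m6A-circRNA epitranscriptomic array, measured in mouse cerebral cortex, on which 12211 circRNA probes were tested, the 300 among them, and 2025 were too dim to test. They were chosen by brightness, the mean over all 9 arrays of the log2 of the background-subtracted signals of both channels added together, with a sum below 1 set to 1, and the groups had no part in the choice. Brightness, and the shares and ranks taken from it, are therefore described without a test. Expression, which is tested below, is made from the same channels that chose the members. Some members were dimmer than the limit of brightness on single arrays and owe their place to the arrays on which they were high. The counts of expression calls are therefore no independent evidence about bright circRNAs as a set. The signal of a spot depends on how its probe binds and labels as well as on the amount of RNA, so that these are the brightest circRNA probes, called members below, and the order of brightness is no order of circRNA amounts.

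Circular RNAs are closed loops that arise when the splicing machinery joins the end of an exon back to an upstream site, and for want of free ends they withstand exonucleases such as RNase R. They are known to accumulate in brain tissue, in neurons above all. N6-methyladenosine (m6A) is a methyl mark that a methyltransferase complex places on adenosines of many RNAs, circRNAs among them, and that demethylases can remove.

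The tissue came from C57BL/6J mice of 10 weeks. Cortex around the infarct was collected 3 days (3d group) or 7 days (7d group) after middle cerebral artery occlusion (MCAO), and the sham group had the operation without the occlusion, with 3 biological replicates and 1 array each in every group. Total RNA was divided with an anti-m6A antibody into a bound fraction (IP) and the supernatant (Sup), both were treated with RNase R, and IP was labeled with Cy5 and Sup with Cy3 for the same array. The methylation level of a circRNA is the percentage that IP makes up of both fractions, and its expression is the log2 of their sum, after both channels were scaled on 10 spike-in probes. Of 18 markers of brain cell types, only Mbp, the myelin basic protein of oligodendrocytes, had a probe among the 46 of 50 mRNA probes that could be matched to a gene. It was well above background on 8 of the 9 arrays, and the tissue could not be checked against the other markers.

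Slides were told apart by the start of the scan alone. By this, the 3d and 7d arrays shared 1 slide and the sham arrays had their own, and slide and occlusion cannot be told apart in any comparison with sham. Single arrays also stood apart. The median expression of the members was 14.16 on 3d replicate 3, against 13.10 and 13.11 on the other 3d arrays, and this array gave the highest expression for 248 members and the lowest methylation level for 194. In the sham group the median expression was 12.81, 13.13 and 13.55, with replicate 3 highest, and replicate 1 gave the highest level of all arrays for 176 members. On the 7d arrays it was 12.88, 12.71 and 12.57, and replicate 3 gave the lowest expression for 192 members. The median expression of all probes on that array was 8.16, against 7.46 and 7.56 on the other 7d arrays. Counts without these arrays are given with each comparison.

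The members took between 56.0% and 66.1% of the summed circRNA signal of an array, and the 10 brightest of them between 7.97% and 12.4%. The share of all members was highest, and that of the 10 brightest lowest, on 3d replicate 3. Brightness ran from 16.71 down to 11.959 at ASCRP4003499, 11.952 at ASCRP4000345 and 11.942 at ASCRP4011055, the last members. The first probes outside, ASCRP4001717, ASCRP4010886 and ASCRP4007861, had 11.934, 11.925 and 11.915, while the median of all circRNA probes was 6.2. Ranked on each array alone, 213 members were among the 300 brightest on every array and 286 on 5 arrays or more. On all 9 arrays, IP and Sup of all 300 members were well above background, and none of their spots was saturated. Of 2700 member values, 20 were left out as outlier spots, which left 281 members with all 9 values.

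The names of 7 members could be told, since they are among the circRNAs that the study lists. The study chose that list on these samples, so that the direction of these 7 is not independent evidence. Among the 10 brightest were mmu_circRNA_000807 (ASCRP4006342) from Rn45s on chromosome 17, the gene of the ribosomal RNA precursor, and mmu_circRNA_005252 (ASCRP4004008), an intronic circRNA of Cmss1 on chromosome 16. With ASCRP4006712, these had the smallest spread of expression within groups, the residual SD of the fit, of all members. Expression of the Rn45s circRNA was 16.82, 16.78 and 16.81 on the sham arrays, 16.99, 16.89 and 16.76 on the 3d arrays and 16.81, 16.83 and 16.59 on the 7d arrays. The groups overlapped. Expression of the Cmss1 circRNA was 16.22, 16.27 and 16.24 on the sham arrays, 16.57, 16.49 and 16.43 on the 3d arrays and 16.31, 16.39 and 16.35 on the 7d arrays. Its 3 groups did not overlap, with log2 changes of 0.25 in 3d vs. sham, 0.10 in 7d vs. sham and -0.15 in 7d vs. 3d (adjusted P = 0.808, 0.705 and 0.83 in limma). Neither of these 2 circRNAs was called in any comparison below in the limma fit on the 10 spike-in probes. Their listing by the study was recalculated with another scaling and test, and the lack of a call holds for this fit only. The methylation level of the Rn45s circRNA was 11.1%, 8.16% and 8.55% on the sham arrays, 12.9%, 11.1% and 12.8% on the 3d arrays and 8.57%, 9.85% and 10.2% on the 7d arrays. The 3d arrays were the highest, with sham replicate 1 level with the lowest of them, and the log2 change was 0.42 in 3d vs. sham (adjusted P = 0.0676) and -0.37 in 7d vs. 3d (adjusted P = 0.0493), short of the fold limit. That of the Cmss1 circRNA was 18.8%, 11.9% and 10.5% on the sham arrays, 19.5%, 16.2% and 17.5% on the 3d arrays and 13.4%, 15.5% and 13.1% on the 7d arrays, with log2 changes of 0.41 (adjusted P = 0.241) and -0.34 (adjusted P = 0.167) in the same comparisons. Sham replicate 1 lay among its 3d arrays, and the 7d arrays were below them.

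The probe with the highest brightness, ASCRP4008132, has no name in the files used here. Its expression was 16.58, 16.57 and 16.96 on the sham arrays, 17.26, 17.20 and 17.41 on the 3d arrays and 16.61, 16.72 and 16.46 on the 7d arrays. The 3d arrays were all above the others. Among the 10 brightest, ASCRP4004672 had 16.07, 16.24 and 16.44 on the sham arrays, 16.57, 16.58 and 17.07 on the 3d arrays and 16.32, 16.30 and 16.14 on the 7d arrays, and its 3d arrays were the highest as well. ASCRP4005609 had 15.80, 15.99 and 16.32, then 16.26, 16.17 and 16.67, then 15.80, 15.83 and 15.61 in the same order, and ASCRP4005042 had 15.56, 15.73 and 16.11, then 15.96, 15.90 and 16.71, then 15.50, 15.65 and 15.44. In both, sham replicate 3 lay among the 3d arrays, and the 7d arrays were below all 3d arrays.

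The largest spread of expression within groups was that of ASCRP4013451, ASCRP4005614 and ASCRP4010911, with residual SDs of 1.34, 1.17 and 1.16. ASCRP4013451 had 12.12, 12.60 and 15.21 on the sham arrays, 14.64, 13.88 and 16.43 on the 3d arrays and 11.88 and 12.19 on the 2 arrays of the 7d group with a value. ASCRP4005614 had 11.85, 12.18 and 14.72 on the sham arrays, 13.56, 13.07 and 14.34 on the 3d arrays and 10.75 and 9.28 on 2 arrays of the 7d group. Sham replicate 3 was far above the other sham arrays in both, and brightness on single arrays ran from 8.90 to 14.52 for ASCRP4005614.

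Methylation levels of the members spread widely. The mean over the 9 arrays ran from 4.90% to 61.0% with a median of 36.0%, and it was below 20% for 66 members, between 20% and 40% for 124 and above 40% for 110, of which 17 were above 50%. The lowest mean was that of ASCRP4013042, which is also among the 10 brightest, with 4.52%, 4.37% and 4.26% on the sham arrays, 5.22%, 5.08% and 6.15% on the 3d arrays, and 4.73% and 4.90% on the 2 arrays of the 7d group that gave a value. The next was ASCRP4009097, with a mean of 4.96% and 4.11% to 5.65% on single arrays, followed by mmu_circRNA_43882 (ASCRP4011950) of Bmper on chromosome 9, whose host gene encodes a secreted regulator of bone morphogenetic proteins. The highest mean was that of ASCRP4005541, with 65.2%, 62.9% and 66.4% on the sham arrays, 58.0%, 56.4% and 41.6% on the 3d arrays and 67.7%, 67.2% and 63.8% on the 7d arrays. Its 3d arrays all lay below the others, with 3d replicate 3 far below. Next came ASCRP4011502 and ASCRP4004954, with means of 59.9% and 59.8%.

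The median level of the members was 39.0% ± 6.26, 26.8% ± 4.66 and 40.9% ± 1.86 (mean and SD of 3 arrays) for sham, 3d and 7d in turn. Array by array it was 44.2%, 40.6% and 32.0% on the sham arrays, 28.008%, 30.7% and 21.6% on the 3d arrays and 42.9%, 40.5% and 39.2% on the 7d arrays. The 3d arrays were the lowest 3, with 3d replicate 2 close to sham replicate 3. Over all 12211 probes tested the median level was 33.7% ± 0.409, 32.8% ± 0.0719 and 38.1% ± 3.76, and over the 300 probes next in brightness it was 38.3%, 28.9% and 41.1%. Median expression of the members was 13.16 ± 0.37, 13.46 ± 0.61 and 12.72 ± 0.15 in the same order, against 7.53, 7.70 and 7.73 over all probes. Over the 300 probes next in brightness it was 11.40, 11.50 and 10.93, also lowest in the 7d group. The lower expression at 7d is thus not particular to the members.

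**Figure D1:**
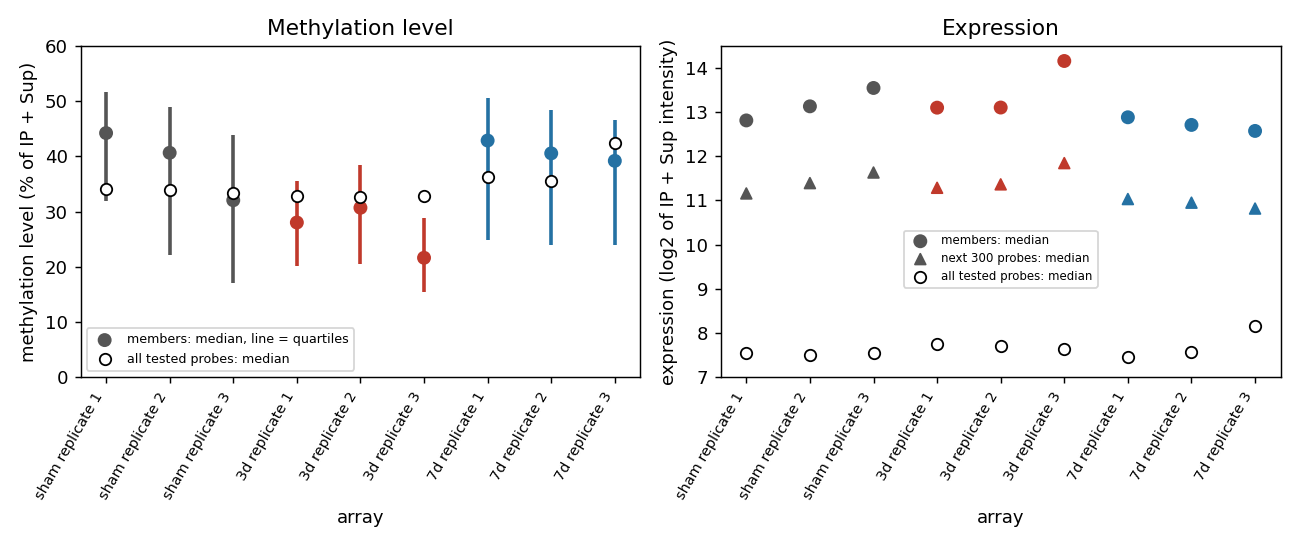
Median methylation level (left, percent, with quartiles) and median expression (right, log2 intensity) on each of the 9 arrays, for the 300 members (filled circles), the next 300 probes in brightness (triangles, right) and all 12211 probes tested (open circles). The members' median level was 21.6% to 30.7% on the 3d arrays and 32.0% to 44.2% on the others. This order was not kept with within-array loess, which takes away a shift shared by the brightest probes. The members' expression was highest on 3d replicate 3, at 14.16.

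How the channels were scaled moved the counts given below. Within-array loess brings the log ratio of IP to Sup to about the same value at every brightness. Quantile normalization gives all arrays the same distribution of brightness. Both by design take away most of a shift that the brightest probes share. Counts under them cannot show whether the members shifted as a set. Scaled on all spike-in probes, the median log2 change of the level over all probes was 0.10 in 3d vs. sham, 0.05 in 7d vs. sham and -0.05 in 7d vs. 3d, against -0.03, 0.15 and 0.19 on the 10 spike-in probes. With the processed signals of the scanner software it was -0.32, 0.04 and 0.37. The median change of the members less that of all probes was -0.41 in 3d vs. sham and 0.30 in 7d vs. 3d on the 10 spike-in probes, -0.33 and 0.25 on all spike-in probes, 0.15 and -0.08 with loess, and 0.21 and -0.15 with the processed signals. For expression it was 0.07, -0.69 and -0.75 for the comparisons in the order just given on the 10 spike-in probes, and -0.23, -0.32 and -0.10 with the processed signals. A call below means a fold change above 1.5 with an unadjusted P below 0.05, and adjusted P values are those of the limma fit over all probes. Shares over all probes come mostly from probes far dimmer than the members, and none was taken over probes of like brightness. They cannot show whether the members were called more often than other bright probes. The normexp offset weighs more on dim than on bright signals, and its part in these shares was not tested. Groups are counted as apart, or as not overlapping, only where no array of either group lacks a value. Counts of such members describe the called members only, and no share over all probes is given for them. They come from the same values as the calls and are no further support for them. Each alternative was followed for 30 calls, those of members with a name and those among the 3 largest changes of a comparison and direction with groups apart, and 15 of these had an adjusted P below 0.05 in this fit. Of the 15, 12 stayed below it with the processed signals, 11 with the replicate number as a block, 6 with loess and quantile normalization, 5 with all spike-in probes, and 0 with each array centred on its median, with a normexp offset of 0 or by the methods' t-test.

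The first comparison asks what had changed 3 days after the occlusion. Of the 300 members, 76 were hypomethylated in the 3d group compared with the sham group, where the share over all probes was 1.56%, and 5 were hypermethylated, where it was 0.434%. With an adjusted P below 0.05, 111 members were lower and 4 higher, against 8.64% of all probes in either direction. In 65 of the 76 and in all 5, the arrays of the 2 groups did not overlap. In tissue made of many cell types, a change of the level within cells and a change in the mix of cells cannot be told apart. For expression in the comparisons below, fewer cells of a type and less RNA per cell cannot be told apart.

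The hypomethylated members of 3d vs. sham with the largest changes were ASCRP4004537, ASCRP4004683 and ASCRP4011924. The level of ASCRP4004683 was 42.3%, 35.8% and 23.3% on the sham arrays and 16.3%, 17.7% and 10.5% on the 3d arrays, a log2 change of -1.18 (SE 0.26, adjusted P = 0.0262). That of ASCRP4011924 was 52.4%, 51.3% and 36.6% on the sham arrays and 26.0%, 27.2% and 13.2% on the 3d arrays, a log2 change of -1.13 (SE 0.25, adjusted P = 0.0275). In both, sham replicate 3 was the lowest sham array and 3d replicate 3 the lowest of all. ASCRP4004537 had the same order, with 51.4%, 50.5% and 40.4% against 24.2%, 26.6% and 11.4%. With within-array loess these 3 changes were -0.30, -0.36 and -0.51 and none of them was called. The circRNA mmu_circRNA_006216 (ASCRP4001973), an exonic circRNA of Dtnb on chromosome 12, was also hypomethylated. Dtnb encodes dystrobrevin beta, a protein of the dystrophin-associated complex. Its level was 10.7%, 9.56% and 12.1% on the sham arrays and 5.46%, 5.29% and 7.90% on the 3d arrays, a log2 change of -0.81 (SE 0.17, adjusted P = 0.0229), and no 3d array reached a sham array. It was not called with all spike-in probes, loess, the processed signals or the deposited values, where the change was -0.57, -0.06, -0.48 and -0.48.

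The 5 hypermethylated members of 3d vs. sham included mmu_circRNA_009696 (ASCRP4014131), an intronic circRNA of the nuclear long noncoding RNA Malat1 on chromosome 19, and mmu_circRNA_20066 (ASCRP4007838) of DQ715306 on chromosome 1. The level of the Malat1 circRNA was 47.2%, 28.7% and 21.2% on the sham arrays, 76.6%, 64.8% and 58.6% on the 3d arrays and 50.4%, 53.1% and 35.4% on the 7d arrays. The 3d arrays were all above both other groups, and its change of 1.11 in 3d vs. sham had an SE of 0.26 (adjusted P = 0.0323). Its expression was called higher in 3d vs. sham, with a log2 change of 0.59 (adjusted P = 0.808), and that call was lost under all 7 other scalings, where the change was between 0.42 with each array centred and 0.93 with quantile normalization. The level of the DQ715306 circRNA was 10.6%, 7.57% and 7.44% on the sham arrays and 15.8%, 12.4% and 13.4% on the 3d arrays, a log2 change of 0.71 (SE 0.15, adjusted P = 0.0251). ASCRP4006710 had 15.6%, 9.32% and 8.54% on the sham arrays and 19.97%, 16.2% and 18.7% on the 3d arrays, a log2 change of 0.76 (SE 0.21, adjusted P = 0.0507). In each of these, sham replicate 1 was the sham array nearest to the 3d group. The other two were ASCRP4012684, one of the 10 brightest, and ASCRP4002452, which is given here after its values were seen. ASCRP4012684 had 8.98%, 7.01% and 5.70% on the sham arrays and 11.7%, 10.9% and 12.2% on the 3d arrays, a log2 change of 0.71 (adjusted P = 0.025). ASCRP4002452 had a log2 change of 0.60 (adjusted P = 0.0505).

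The balance of methylation in 3d vs. sham was not the same under every scaling. Shares over all probes are given for the 10 spike-in probes only and do not apply to counts under other scalings. Hypermethylated and hypomethylated members numbered 44 and 0 with within-array loess, 24 and 9 with the processed signals, 24 and 8 with the deposited values and 10 and 13 with all spike-in probes. None of the 76 hypomethylated members was called under all 8 scalings, whereas 4 of the 5 hypermethylated ones were, ASCRP4006710, ASCRP4012684 and the circRNAs of DQ715306 and Malat1. Without 3d replicate 3 the hypomethylated members numbered 14 and without sham replicate 3 they numbered 131, with 3 hypermethylated. Without sham replicate 1 the counts were 50 hypomethylated and 16 hypermethylated. With both 3d replicate 3 and sham replicate 3 left out, an alternative chosen after seeing the data, 60 members were hypomethylated and 2 hypermethylated. In limma with an adjusted P below 0.05, 0 members were lower with each array centred on its median, with a normexp offset of 0, with loess, or without any one of the 3d arrays, sham replicate 1 and sham replicate 2, whereas 143 were lower without sham replicate 3 and 176 without background correction.

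Some members also had higher expression at 3 days. In 3d vs. sham it was higher for 47, where the share over all probes was 2.4%, and lower for 1, where it was 0.254%. Only 2 members had an adjusted P below 0.05 in limma, both higher, against 0.156% of all probes. The count was 0 with the replicate number as a block, with all spike-in probes, with each array centred and with a normexp offset of 0, and with quantile normalization 13 were lower and 0 higher. It was 31 higher without 3d replicate 2, 24 without sham replicate 3, 15 with an intensity trend and 14 without background correction. Without 3d replicate 3 or sham replicate 1 it was 0 higher, and without 3d replicate 1 it was 1. The fit of only the 6 arrays compared and the methods' t-test also gave 0. In 12 of the 47 the arrays of the groups did not overlap. The median log2 change of the members was 0.24, against 0.17 over all probes. Hypomethylation went with higher expression in 17 members, where the share over all probes was 0.573%, both measures being made from the same 2 channels.

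Among the called members of 3d vs. sham whose groups did not overlap, ASCRP4002486 is described first. Its brightness on single arrays ran from 10.65 to 14.65 and so lay on both sides of that of the last member. Its expression was 11.39, 11.54 and 13.13 on the sham arrays and 13.47, 13.49 and 14.84 on the 3d arrays, a log2 change of 1.915 (SE 0.37, adjusted P = 0.0316). Sham replicate 3 came close to the lower 3d arrays, and the adjusted P was 0.0998 with the replicate number as a block and 0.378 without 3d replicate 3. By the methods' t-test the change was 1.84 and not called (adjusted P = 0.245). ASCRP4011444 had 14.16, 14.55 and 15.28 on the sham arrays and 15.29, 15.32 and 16.76 on the 3d arrays, a log2 change of 1.12 (SE 0.31, adjusted P = 0.246), with sham replicate 3 again next to the 3d arrays, and without 3d replicate 3 the change was 0.64. ASCRP4013159 changed by 1.15 (SE 0.28, adjusted P = 0.151). Both lost the call with each array centred on its median, where the changes were 0.96 and 0.98, and that of ASCRP4013159 was 0.66 and not called with both 3d replicate 3 and sham replicate 3 left out. Nor was either called by the methods' t-test, at 1.23 and 1.22. The one member that was lower, ASCRP4005038, had 12.92, 13.99 and 14.17 on the sham arrays and 12.93, 12.68 and 11.94 on the 3d arrays, a log2 change of -1.18 (adjusted P = 0.126). Its groups met at sham replicate 1. Among the circRNAs with a name, that of XLOC_027457 (mmu_circRNA_19555, ASCRP4009692), an intronic circRNA on chromosome X, had 14.40, 14.02 and 14.62 on the sham arrays and 15.69, 15.14 and 15.43 on the 3d arrays, a log2 change of 1.07 (SE 0.24, adjusted P = 0.0693). Its 3d arrays were all higher, and with quantile normalization the change was 0.47 and no longer called.

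The higher expression of members in 3d vs. sham rested on the scaling, the test and single arrays as well. The methods' t-test gave 4 higher and 0 lower, and the fit of only the 6 arrays compared gave 13 and 1. Higher and lower members numbered 12 and 13 with quantile normalization, 16 and 3 with all spike-in probes and 7 and 1 with each array centred on its median, and 4 of the 47 were called under all 8 scalings, ASCRP4002486, ASCRP4007578 and, named after their values were seen, ASCRP4005781 and ASCRP4012571. Without 3d replicate 3 the counts were 23 and 22. Leaving out sham replicate 1 gave 27 and 3, sham replicate 3 gave 80 and 1, 3d replicate 1 gave 74 and 2, and 3d replicate 2 gave 86 and 1.

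At 7 days the levels of the members were near those of the sham group. In 7d vs. sham, 3 members were hypomethylated, where the share over all probes was 0.0246%, and 1 was hypermethylated, where it was 0.418%. None had an adjusted P below 0.05 with limma, as was the case for 0% of all probes, and with the unadjusted P and the fold limit the counts are the 3 and 1 just given. By the methods' t-test 1 was lower and 0 higher. In limma without background correction, 1 was higher and 2 lower by the adjusted P, and with an intensity trend 1 was lower. The median log2 change was 0.02, against 0.15 over all probes. A P that misses the threshold does not show that the levels were equal.

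The Dtnb circRNA was the one hypomethylated member of 7d vs. sham whose groups did not overlap. Its level in the 7d group was 6.77%, 5.05% and 6.11%, below every sham array, a log2 change of -0.85 (SE 0.17, adjusted P = 0.207). The other two were ASCRP4001750, one of the 10 brightest, and ASCRP4004121, which was chosen after its values were seen. The level of ASCRP4004121 was 25.8%, 17.1% and 10.8% on the sham arrays, 8.81%, 9.22% and 9.73% on the 3d arrays and 11.5%, 10.4% and 8.20% on the 7d arrays. The sham arrays differed more from one another than the 3d and 7d arrays did, and sham replicate 3 fell within the 7d range. ASCRP4001750 had 43.0%, 20.7% and 14.3% on the sham arrays and 16.7%, 14.8% and 8.38% on the 7d arrays, with sham replicate 1 alone far above the rest. The member that was hypermethylated, ASCRP4008562, had 25.6%, 14.2% and 14.3% on the sham arrays and 26.3%, 27.9% and 32.2% on the 7d arrays, a log2 change of 0.73 (SE 0.22, adjusted P = 0.207). Its 7d arrays were all above the sham arrays, sham replicate 1 only just, and without sham replicate 2 the change was 0.58 and not called. It was not called either with all spike-in probes or with each array centred on its median, at 0.55 and 0.56.

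Hypermethylated and hypomethylated members of 7d vs. sham numbered 0 and 7 with all spike-in probes and with each array centred on its median, and 1 and 6 with loess and without background correction. The circRNA of Dtnb and ASCRP4004121 were called under all 8 scalings. Without sham replicate 3, 21 members were hypomethylated, and without 7d replicate 1 there were 7. Without 7d replicate 3, sham replicate 1 or sham replicate 2 there were 1, 1 and 2. The hypermethylated ones numbered 11 without sham replicate 1, 0 without sham replicate 2 and 2 without 7d replicate 3. With both 3d replicate 3 and sham replicate 3 left out, 22 were hypomethylated.

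Lower expression at 7 days than in the sham group was called for some members. In 7d vs. sham, 98 members were lower, where the share over all probes was 3.68%, and 1 was higher, where it was 0.27%. With an adjusted P below 0.05, 4 were lower and 0 higher, against 0.213% of all probes, and in 72 of the 98 the arrays of the groups did not overlap. The median log2 change was -0.46, whereas over all probes it was 0.23, and 34 members had a change above 0.

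Expression of ASCRP4008562 was 13.08, 14.21 and 14.06 on the sham arrays, 13.10, 13.57 and 14.26 on the 3d arrays and 12.56, 12.11 and 11.84 on the 7d arrays. The 7d arrays were the lowest 3, and the log2 change in 7d vs. sham was -1.61 (SE 0.29, adjusted P = 0.016, and 0.261 with the replicate number as a block). The Bmper circRNA had 12.88, 13.19 and 13.75 on the sham arrays, 13.48, 12.72 and 12.32 on the 3d arrays and 12.05 and 10.74 on the 2 arrays of the 7d group with a value. Both 7d values were below every other, a log2 change of -1.88 in 7d vs. sham (SE 0.35, adjusted P = 0.0204, and 0.376 with the block). By the methods' t-test the change of this circRNA was -1.78 and not called. Without 7d replicate 3 its 7d group is 1 array, the spread comes from the other groups alone, and the change was -1.23 (adjusted P = 0.379). ASCRP4011064 had 12.94, 13.34 and 15.46 on the sham arrays and 12.56, 12.37 and 11.13 on the 7d arrays, a log2 change of -1.89 (SE 0.48, adjusted P = 0.117). ASCRP4010911 had 12.18, 12.56 and 15.01 on the sham arrays and 11.82, 11.90 and 10.68 on the 7d arrays, a log2 change of -1.78 (SE 0.52, adjusted P = 0.202). In both, sham replicate 3 was far above the other sham arrays, and without it the changes were -1.12 and -0.90. Without 7d replicate 3 they were -1.45 and -1.39 and not called. By the methods' t-test neither was called, at -2.22 and -2.27. The member that was higher, ASCRP4005922, had 11.72, 12.10 and 11.98 on the sham arrays and 12.48, 12.50 and 12.73 on the 7d arrays, a log2 change of 0.63 (SE 0.20, adjusted P = 0.25). Its 7d arrays were all above the sham arrays. Without 7d replicate 3 or sham replicate 1 the change was 0.55 and 0.53 and not called, and with each array centred on its median it was 0.43.

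In 7d vs. sham, quantile normalization, which takes away a shift shared by the brightest probes, gave 14 members higher in expression and 19 lower. With the deposited values 7 were higher and 56 lower. Of the 98, 16 were called under all 8 scalings, among them ASCRP4008562, ASCRP4011064 and the Bmper circRNA. Without 7d replicate 3 the lower members numbered 16, without sham replicate 3 they numbered 42 and without sham replicate 1 they numbered 145, and the higher ones were 2 without 7d replicate 3, sham replicate 2 or sham replicate 3. With both 3d replicate 3 and sham replicate 3 left out, 53 members were lower. By the adjusted P in limma, 0 were lower with all spike-in probes, with each array centred, with the replicate number as a block, or without 7d replicate 3 or sham replicate 3, whereas 23 were lower without 7d replicate 2 or with an intensity trend, 22 without sham replicate 1 and 17 without sham replicate 2. Quantile normalization gave 12 higher and 9 lower.

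The comparison of the infarct groups asks what changed between the days. By the scan start it lies within 1 slide, on which the groups filled different positions. In 7d vs. 3d, 91 members were hypermethylated, where the share over all probes was 3.82%, and 1 was hypomethylated, where it was 0.106%. With an adjusted P below 0.05, 189 were higher and 3 lower, against 30.7% of all probes. In 82 of the 91 and in the 1 the arrays of the groups did not overlap. The median log2 change was 0.49, against 0.19 over all probes.

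In 7d vs. 3d the level of ASCRP4004537 was 24.2%, 26.6% and 11.4% on the 3d arrays and 44.7%, 41.6% and 35.2% on the 7d arrays, a log2 change of 1.05 (SE 0.27, adjusted P = 0.023). The level of ASCRP4004683 on the 7d arrays was 37.3%, 28.9% and 24.9%, again a log2 change of 1.05 (SE 0.26, adjusted P = 0.018). All 7d arrays were above all 3d arrays in both, and with loess the changes were 0.31 and 0.24 and not called. ASCRP4010911 had 9.02%, 10.2% and 9.12% on the 3d arrays and 18.4%, 15.001% and 24.8% on the 7d arrays, a log2 change of 1.01 (SE 0.38, adjusted P = 0.0646). Its call was lost without 3d replicate 1, 3d replicate 3 or 7d replicate 3, with changes of 0.97, 0.98 and 0.81, and with all spike-in probes, each array centred, loess, the processed signals and the deposited values, at 0.62, 0.79, 0.23, 0.48 and 0.48. The hypomethylated member was the XLOC_027457 circRNA, with 14.1%, 15.2% and 11.8% on the 3d arrays and 9.35%, 7.94% and 8.06% on the 7d arrays, a log2 change of -0.69 (SE 0.30, adjusted P = 0.0931). All its 7d arrays were below the 3d arrays, while the sham arrays, at 20.3%, 10.9% and 7.26%, spanned both. Its change was between -0.61 and -0.77 without any one of 3d replicate 1, 3d replicate 2 and the 7d arrays, and in none of these was it called.

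The number of members with higher levels in 7d vs. 3d was smaller under the other scalings. Hypermethylated and hypomethylated members numbered 0 and 50 with loess, 9 and 22 with the processed signals, 8 and 22 with the deposited values, 5 and 15 with all spike-in probes and 16 and 6 with each array centred on its median. The median log2 change of the members was 0.19 with all spike-in probes, 0.28 with each array centred and 0.21 with the processed signals, and it fell below 0 with loess alone, at -0.09. Members with an adjusted P below 0.05 in limma, higher and lower, numbered 0 and 10 with all spike-in probes, 0 and 2 with loess, 0 and 0 with each array centred, 21 and 0 with a normexp offset of 0, 68 and 0 without 7d replicate 1 and 106 and 0 without 3d replicate 3. None of the 91 was called under all 8 scalings, and the XLOC_027457 circRNA was. Without 3d replicate 3 the hypermethylated members numbered 26 and without 7d replicate 3 they numbered 97, and the hypomethylated one was called without 3d replicate 3 and lost without any other 3d or 7d array, which gave 0. With the replicate number as a block the counts were 92 and 2. With both 3d replicate 3 and sham replicate 3 left out they were 29 and 2.

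**Figure D2:**
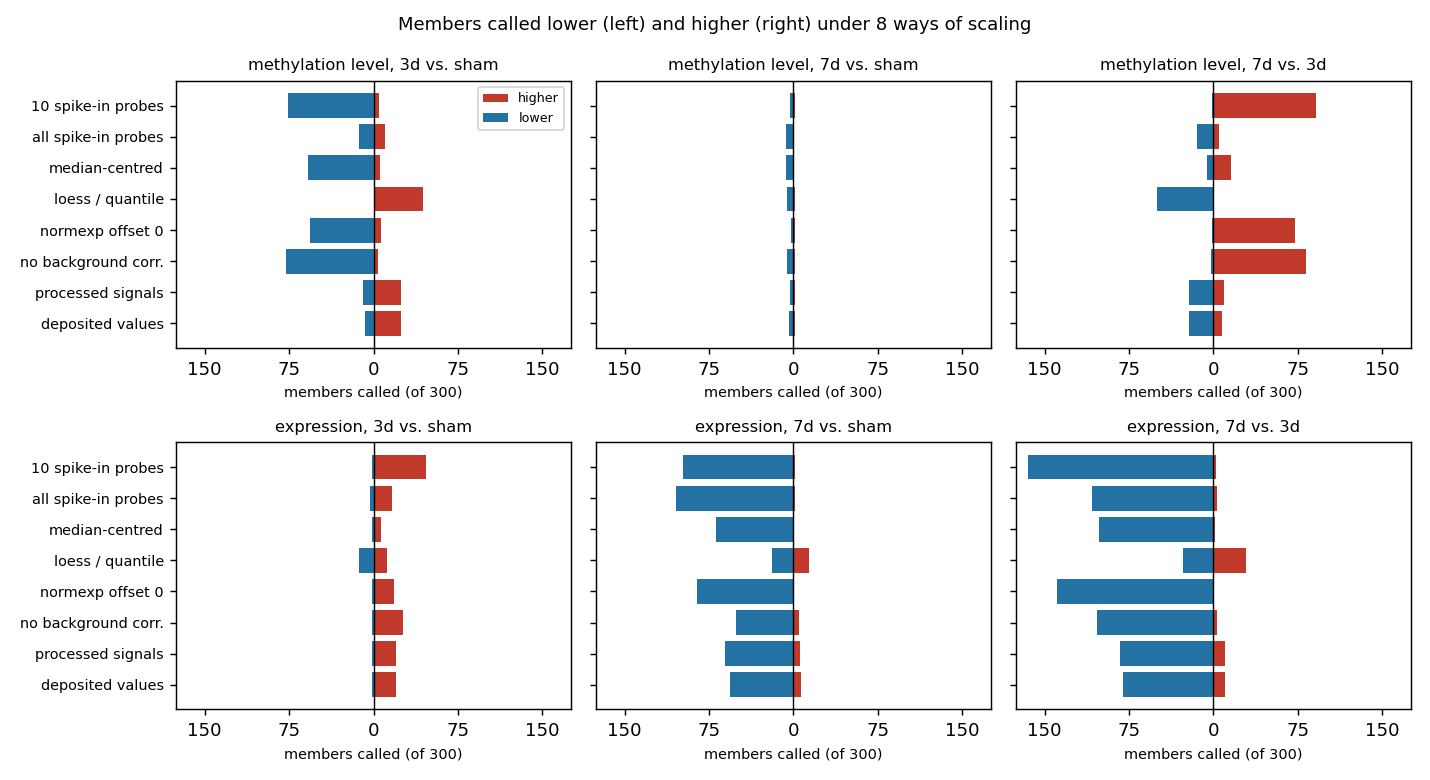
Number of the 300 members called lower (bars to the left, blue) and higher (bars to the right, red) in each comparison, for methylation level (top) and expression (bottom), under 8 ways of scaling or correcting the signals. Given as higher and lower, the balance of methylation in 3d vs. sham and 7d vs. 3d turned around with loess (44 and 0, then 0 and 50). It also did with the processed signals (24 and 9, then 9 and 22) and the deposited values (24 and 8, then 8 and 22). With all spike-in probes it turned around in 7d vs. 3d only (5 and 15). Lower expression in the 7d group was kept except with quantile normalization (14 and 19 against sham, 29 and 27 against 3d). Loess and quantile normalization take away a shift shared by the brightest probes.

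Between the infarct groups expression gave the largest counts by the unadjusted P with the fold limit. In 7d vs. 3d, 165 members were lower, where the share over all probes was 7.71%, and 2 were higher, where it was 0.655%. With an adjusted P below 0.05, 82 were lower and 0 higher with limma, against 4.15% of all probes. These shares rest mostly on far dimmer probes, and probes of like brightness were not compared. In 126 of the 165 and in both of the 2 the arrays of the groups did not overlap. The median log2 change was -0.68, against 0.07 over all probes. There were 78 members that were both hypermethylated and lower in expression, where the share over all probes was 3.27%, the 2 measures again sharing their channels.

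Members with a missing value in either group, such as ASCRP4005614, were left out of the next ranking, and the lowest change of any member in 7d vs. 3d was -3.64. Among the others whose groups did not overlap, the 3 with the largest decreases were low on the 7d arrays and highest on 3d replicate 3. The brightness of these 3 was 10.61, 10.58 and 10.62 on the lowest array, below that of the last member, and 16.03, 15.55 and 15.05 on the highest. Expression of ASCRP4010911 was 14.44, 14.18 and 16.21 on the 3d arrays, a log2 change of -3.47 to the 7d group (SE 0.52, adjusted P = 0.00034). ASCRP4007578 had 11.56, 11.96 and 13.97 on the sham arrays, 13.75, 13.87 and 15.74 on the 3d arrays and 11.16, 11.81 and 10.71 on the 7d arrays, a log2 change of -3.23 in 7d vs. 3d (SE 0.47, adjusted P = 0.000333). ASCRP4008818 had 14.71, 14.11 and 15.23 on the 3d arrays and 11.40, 12.27 and 10.78 on the 7d arrays, a log2 change of -3.20 (SE 0.47, adjusted P = 0.000333). The 7d arrays of all 3 lay below the 3d arrays by more than the SD of either group. Their adjusted P was between 0.0807 and 0.0902 with all spike-in probes, 0.131 with each array centred on its median, 0.135 with a normexp offset of 0 and between 0.0526 and 0.0583 without 7d replicate 3. The changes themselves stayed between -3.58 and -2.85 in these 4 settings. By the methods' t-test ASCRP4010911 and ASCRP4007578 were not called, at -3.68 and -3.47 (adjusted P = 0.803 and 0.821). ASCRP4008818 kept its call in that test, at -3.14 (adjusted P = 0.332). ASCRP4005038 and ASCRP4002452 were higher in the 7d group. ASCRP4005038 had 13.40, 13.26 and 13.29 on the 7d arrays, a log2 change in 7d vs. 3d of 0.80 (SE 0.28, adjusted P = 0.13), and ASCRP4002452 had 13.47, 13.46 and 12.80 on the 3d arrays and 13.84, 13.999 and 13.75 on the 7d arrays, a log2 change of 0.62 (SE 0.22, adjusted P = 0.127). In both, 3d replicate 3 was the lowest array, and without it the changes were 0.51 and 0.40 and not called. ASCRP4005038 was also lost without 7d replicate 3, at 0.81, and ASCRP4002452 without 7d replicate 2, at 0.55. Expression of the Bmper circRNA fell by 1.45 on the log2 scale (SE 0.35, adjusted P = 0.0176, and 0.203 with the replicate number as a block), and with 7d replicate 2 as the only array of its 7d group the change was -0.79 and not called. It was not called either by the methods' t-test or with quantile normalization, at -1.39 and -0.76.

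With quantile normalization, which takes away a shift shared by the brightest probes, 29 members were higher in expression in 7d vs. 3d and 27 lower. Those counts cannot show whether the members fell as a set. The decrease was kept in direction elsewhere, with 80 to 139 members lower under the other 6 alternative scalings. Of the 165, 27 were called under all 8. Without 3d replicate 3 the lower members numbered 86 and without 7d replicate 3 they numbered 81. By adjusted P in limma, 0 were lower with all spike-in probes, with each array centred or with a normexp offset of 0, 57 with the replicate number as a block, 24 without 3d replicate 3 and 19 without 7d replicate 3. The higher ones were 1 without 3d replicate 3, 7d replicate 2 or 7d replicate 3, and 3 without 3d replicate 1 or 3d replicate 2. Expression of the XLOC_027457 circRNA changed by -0.74 (SE 0.24, adjusted P = 0.0844) and by 0.34 with quantile normalization, so that its direction depended on the scaling. It was not called with the processed signals or the deposited values, at -0.29 and -0.28, without 7d replicate 3, at -0.65, by the methods' t-test or with an intensity trend.

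The 27 members lower in 7d vs. 3d under all 8 scalings were singled out after their values were seen and are described without a test. They ranked from 20 to 297 in brightness, and their log2 changes ran from -3.64 to -1.46 with a median of -2.47. Their median expression was 12.18, 12.68 and 14.71 on the sham arrays, 14.23, 14.06 and 15.23 on the 3d arrays and 11.96, 12.27 and 11.66 on the 7d arrays. Sham replicate 3 thus lay among the 3d arrays, and the other sham arrays close to the 7d arrays. Of the 27, 24 were also called lower in 7d vs. sham. For 25 of the 27, 3d replicate 3 was the brightest array. Their median level was 30.7%, 15.8% and 9.81% on the sham arrays, 11.025%, 12.1% and 9.33% on the 3d arrays and 15.4%, 11.6% and 11.8% on the 7d arrays, with sham replicate 1 alone far above the rest. What set 3d replicate 3 and sham replicate 3 apart was not tested.

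**Figure D3:**
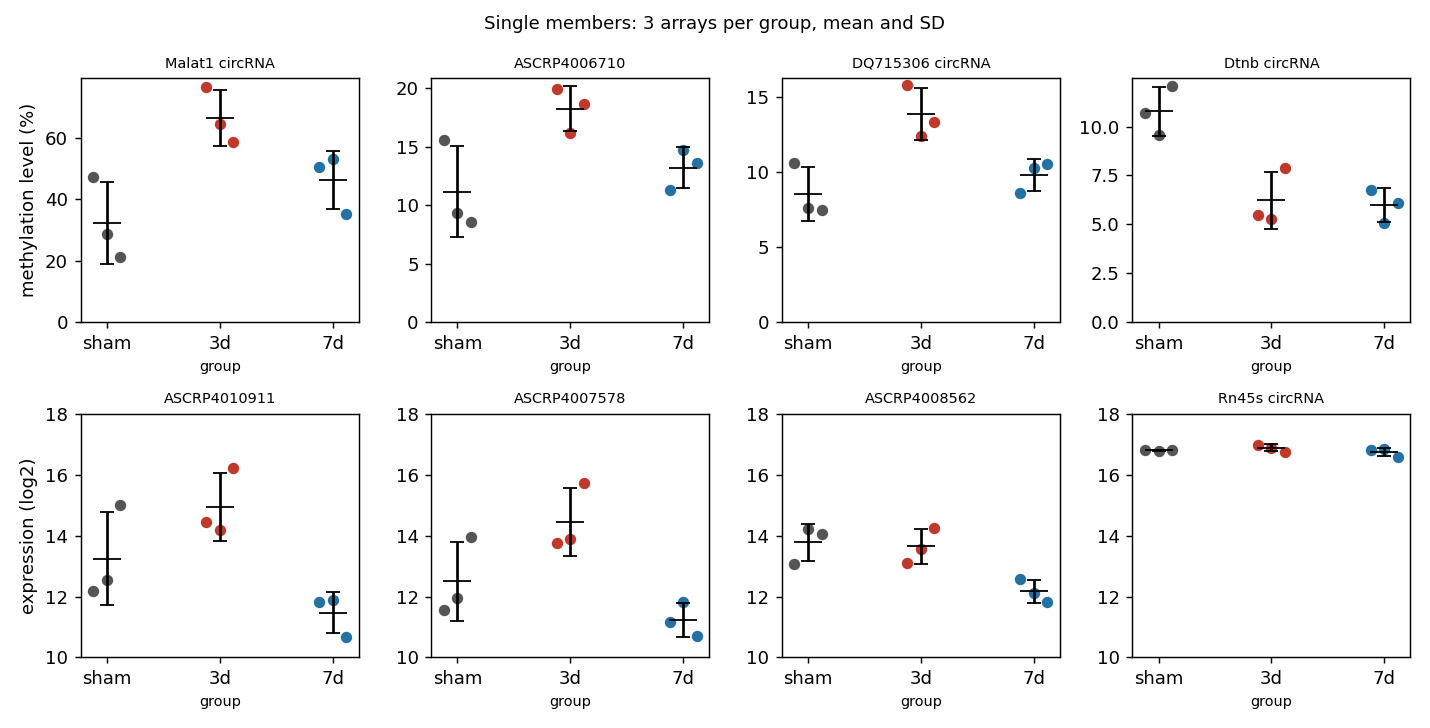
Methylation level (top, percent) and expression (bottom, log2 intensity) of 8 members, with 1 point for each of the 3 arrays of a group and the mean with its SD. The Malat1 circRNA had 58.6% to 76.6% on the 3d arrays and 21.2% to 47.2% on the sham arrays, expression of ASCRP4010911 was 14.18 to 16.21 on the 3d arrays and 10.68 to 11.90 on the 7d arrays, and the Rn45s circRNA stayed between 16.59 and 16.99 on all arrays.

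Over both measures and all 3 comparisons, 209 members had at least 1 call, where the share over all probes was 10.9%, and 91 had none. The comparisons share groups, so that their counts are not independent. With 3 arrays to a group, every value here is of limited precision.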

How the data were processed

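RNA of 9 samples, 3 in each of the sham, 3d and 7d groups, was measured on 1 array each, and samples were grouped by the titles of their records. The deposited scanner files hold intensity as written by Agilent Feature Extraction 11.0.1.1, with a median pixel value, a local background, a processed signal and quality marks per spot and channel. The table of the authors holds log2 values after spike-in normalization. Each is a processed signal less, within its channel, the mean of 10 spike-in probes out of 102, with a largest difference of 5.6e-10, so that scale, centring and direction are known. The table lists 12251 probes, all 300 members among them. Its medians for IP and Sup were -4.83 and -3.46 on 3d replicate 1, -4.76 and -3.49 on 3d replicate 2, -5.12 and -3.38 on 3d replicate 3, -4.99 and -4.18 on 7d replicate 1, -4.86 and -3.92 on 7d replicate 2, -4.76 and -3.81 on 7d replicate 3, -4.76 and -3.96 on sham replicate 1, -4.99 and -4.06 on sham replicate 2 and -5.11 and -3.76 on sham replicate 3.

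Here the background was removed from the median pixel intensity by normexp with an offset of 50, outlier spots were left out, and each channel was scaled on the same 10 spike-in probes. A probe was tested if IP and Sup were both well above background on 3 arrays or more, which 12211 probes were and 2025 were not. The log2 of the level and of expression were fitted over all 9 arrays with limma 3.58.1 (lmFit, eBayes) in R 4.3.3, with Benjamini-Hochberg adjustment over all probes tested. The fit was tested on simulated data. The alternatives were other scalings and background corrections, other filters, an intensity trend, the methods' t-test, a fit of 6 arrays, adjusted P values, a replicate block and arrays left out.

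The members and lists were chosen with earlier results of these data known. Members are named if among the 10 brightest, if among the 3 largest changes of a comparison and direction with groups apart, if extreme in level or in spread, if next to the limit of brightness, or if named by the study. Members with a missing value in either group were not ranked by change. ASCRP4005614 and the Bmper circRNA, each without a value on 1 array of the 7d group, were therefore not ranked in its comparisons. The files give probe identifiers, and the names of 60 listed entries were joined to 1 probe each by recalculating the listed fold change and P value within a relative tolerance of 0.0001. Host genes, classes and chromosomes are those of the study, and 293 members have no name here.

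Groups share replicate numbers in the titles, but 7d replicate 2, 7d replicate 3 and sham replicate 3 have other numbers in their descriptions. Deviations of same-numbered arrays from their group means correlated at 0.40, 0.21 and 0.46 for the level and 0.56, 0.23 and 0.53 for expression in 3d vs. sham, and at 0.13, 0.26 and 0.33 for the level in 7d vs. 3d. They correlated at 0.0039, -0.013 and 0.035 for the level in 7d vs. sham, and below 0 for expression in both comparisons of the 7d group. The pairing comes from these numbers alone, and the fit has no block.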

Additional observations from a re-analysis of the deposited data

Results flagged for a closer look

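The infarct groups were compared directly at 3 and 7 days, on the slide that they share by the scan start. This test of the difference between time points passed for many members. With an adjusted P below 0.05 in limma, the methylation level rose from 3 to 7 days for 189 of the 300 members and fell for 3, and expression was lower for 82 and higher for 0. The share over all probes, in either direction, was 30.7% for the level and 4.15% for expression. Most of those probes were far dimmer than the members, and no share was taken over probes of like brightness. Without the adjustment and with the fold limit, expression was higher for 2. These counts rest on the scaling, the test and single arrays. The level was higher for 68 without 7d replicate 1 and 106 without 3d replicate 3, and expression was lower for 24 without 3d replicate 3 and 19 without 7d replicate 3. With all spike-in probes the level was higher for 0 and lower for 10, with each array centred on its median 0 members passed in either measure, and with a normexp offset of 0 the level was higher for 21 and expression lower for 0. By the methods' t-test after adjustment the level was higher for 72 and expression lower for 0. With within-array loess the level was higher for 0 and lower for 2, with quantile normalization expression was higher for 52 and lower for 25, and with the processed signals the level was higher for 18 and lower for 31 and expression higher for 11 and lower for 65.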

How the results depend on the processing

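Counts below give members higher and lower, in the order 3d vs. sham, 7d vs. sham, then 7d vs. 3d, and the cause of each difference was not tested. Counts as reported were 5 and 76, 1 and 3, 91 and 1 for the level, and 47 and 1, 1 and 98, 2 and 165 for expression. With all spike-in probes they were 10 and 13, 0 and 7, 5 and 15 for the level and 16 and 3, 1 and 104, 3 and 108 for expression. With each array centred on its median they were 6 and 58, 0 and 7, 16 and 6, and 7 and 1, 0 and 69, 1 and 102. With within-array loess for the level and quantile normalization for expression they were 44 and 0, 1 and 6, 0 and 50, and 12 and 13, 14 and 19, 29 and 27. With a normexp offset of 0 they were 7 and 56, 1 and 2, 72 and 1, and 18 and 1, 0 and 86, 0 and 139. Without background correction they were 4 and 78, 1 and 6, 82 and 2, and 26 and 1, 5 and 51, 3 and 103. With the processed signals they were 24 and 9, 1 and 3, 9 and 22, and 20 and 1, 6 and 61, 10 and 83. With the deposited values they were 24 and 8, 1 and 4, 8 and 22, and 20 and 1, 7 and 56, 10 and 80.

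An intensity trend in the prior spread gave 11 lower in the level of 7d vs. sham, and in expression 2 lower in 3d vs. sham and 1 higher in 7d vs. 3d. The methods' t-test gave 4 and 49, 0 and 1, 70 and 1 for the level and 4 and 0, 1 and 29, 2 and 38 for expression. After Benjamini-Hochberg adjustment of that t-test, with the same fold limit, 22 members were higher in the level of 7d vs. 3d, and every other count of either measure was 0. A fit of only the 6 arrays compared, which in 7d vs. 3d is the fit within the slide, gave 13 higher in expression of 3d vs. sham and 90 and 1 (level) and 2 and 178 (expression) in 7d vs. 3d. An adjusted P below 0.05 with the same fold limit gave 3 and 41, 0 and 0, 80 and 0 for the level and 2 and 0, 0 and 4, 0 and 82 for expression. With the replicate number as a block, the level of 7d vs. sham had 9 lower and that of 7d vs. 3d had 2 lower, and no other count moved by more than 1.5 times. Only in the level of 3d vs. sham and 7d vs. 3d and in expression of 3d vs. sham did all same-numbered pairs correlate above 0.1. Slide, as told by the scan start, could not be fitted as a block, since the sham arrays are alone on theirs.

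With 3d replicate 3 and sham replicate 3 both left out, an alternative chosen after seeing the data, the counts were 2 and 60, 1 and 22, 29 and 2 for the level and 40 and 13, 2 and 53, 1 and 86 for expression. Leaving out 1 array at a time, the level of 3d vs. sham had 3 to 16 higher and 14 to 131 lower, that of 7d vs. sham 0 to 11 and 1 to 21, and that of 7d vs. 3d 26 to 134 and 0 to 1. Expression of 3d vs. sham had 23 to 86 higher and 1 to 22 lower, that of 7d vs. sham 1 to 2 and 16 to 145, and that of 7d vs. 3d 1 to 3 and 81 to 217.

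The median level of the members was 38.97%, 26.8% and 40.9% in the sham, 3d and 7d groups. It was 49.7%, 39.96% and 49.1% with all spike-in probes, and 30.7% and 32.7% in the sham and 7d groups with the processed signals, as with the deposited values, at 30.75% and 32.74%. It was 47.9% and 47.4% in the 3d and 7d groups with loess, and 37.3% in the 7d group with each array centred. Median expression in the sham, 3d and 7d groups was 17.14, 17.30 and 16.81 with the processed signals and 17.14, 17.30 and 16.82 with the deposited values, on which the scale differs, and 13.06 in the 7d group with quantile normalization.

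Of 30 calls, those of members with a name and those among the 3 largest changes with groups apart, 629 of 630 values under the alternatives kept their direction and 536 kept the call. Expression of ASCRP4009692 in 7d vs. 3d turned from -0.74 to 0.34 with quantile normalization. Other calls described were not followed one by one. For the 15 of these 30 calls with an adjusted P below 0.05, 170 of 300 values under the alternatives stayed below it.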
